A study of Homo sapiens with 3 samples.

Results

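The adenylyl cyclase family was followed through a map of promoter contacts in human cardiomyocytes, to ask which DNA fragments the promoters of its 9 membrane-bound members, ADCY1 to ADCY9, touch. A member's promoter fragment was the captured HindIII fragment that holds an annotated transcript start of the gene, and every interaction listed with that fragment was taken. The rule found promoter fragments for 8 of the 9 genes and 44 interactions of the 200587 in the series. Each fragment held only part of its gene's annotated starts, from 1 of 8 for ADCY2 and 2 of 16 for ADCY5 to 12 of 19 for ADCY4. The remaining starts lay on no listed promoter fragment, so the contacts given do not cover them. None of the 3 annotated starts of ADCY8 lay on a listed promoter fragment. The nearest listed promoter fragment begins 488 bp beyond the ADCY8 start, on its upstream side, and is given apart from the other 8 as the fragment next to ADCY8, a choice made after its values were seen.

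The cells were hESC-CMs, that is, cardiomyocytes made with a commercial kit from WA09 (H9), a human embryonic stem cell line, at passage 32 and enriched in lactate medium without glucose. There were 3 biological replicates of this 1 line in 1 condition, with no untreated or undifferentiated group used here. The protocol gives a purity of at least 80 to 90%, judged by flow cytometry and qPCR for MYH7 and TNNT2, so other cells could remain, and contact calls hold no expression value with which to check those markers. In promoter capture Hi-C (PCHi-C), stretches of DNA that are neighbours in the nucleus are joined, and the products that carry a promoter fragment are enriched and sequenced. CHiCAGO then scores how far the reads joining a pair of fragments exceed a background set by distance and noise. A higher score marks a larger excess. The lowest score listed was 5, so a contact missing from a replicate may have scored less and is not shown to be absent. Replicates 1, 2 and 3 held 112473, 109731 and 110740 interactions.

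Adenylyl cyclases make cyclic AMP from ATP. In heart muscle cells noradrenaline and adrenaline act through beta-adrenergic receptors and the stimulatory G protein to switch them on, and cyclic AMP then acts through protein kinase A, EPAC and other sensors to raise the rate and force of the beat. The members differ in what else controls them. ADCY5 and ADCY6, the main forms of the adult heart, are inhibited by calcium. ADCY1, ADCY3 and ADCY8 form the group that responds to calmodulin, ADCY2, ADCY4 and ADCY7 the group that G protein beta-gamma subunits can stimulate, and ADCY9 stands apart as the form least sensitive to forskolin.

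For ADCY2, ADCY3, ADCY5 and ADCY9, sequence is shown from the partner fragment that scored highest among those called in all 3 replicates. The matching window of ADCY4 overlaps a UTR of KHNYN and was searched but not printed. Those of ADCY7 and of the fragment next to ADCY8 were not searched on their own. Each run is the central 300 bases of the fragment, from the plus strand of GRCh37, and none of the 4 printed windows overlaps an exon. Capitals mark TGACG or its reverse complement, the arm of the cyclic AMP response element.
ADCY5, chr3:123048543-123048842, within ADCY5: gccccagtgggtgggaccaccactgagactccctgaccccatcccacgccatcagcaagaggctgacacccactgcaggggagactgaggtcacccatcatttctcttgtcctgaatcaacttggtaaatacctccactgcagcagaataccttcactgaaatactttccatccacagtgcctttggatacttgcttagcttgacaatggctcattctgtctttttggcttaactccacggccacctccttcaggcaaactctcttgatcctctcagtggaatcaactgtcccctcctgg
ADCY9, chr16:4025096-4025395, within ADCY9: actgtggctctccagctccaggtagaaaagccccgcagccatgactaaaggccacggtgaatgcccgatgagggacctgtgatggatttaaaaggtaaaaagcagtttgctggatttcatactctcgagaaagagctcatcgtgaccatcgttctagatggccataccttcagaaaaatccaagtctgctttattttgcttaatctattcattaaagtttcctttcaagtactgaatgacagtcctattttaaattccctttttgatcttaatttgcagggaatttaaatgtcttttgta
ADCY2, chr5:7747529-7747828, within ADCY2 and the lncRNA ENSG00000250761: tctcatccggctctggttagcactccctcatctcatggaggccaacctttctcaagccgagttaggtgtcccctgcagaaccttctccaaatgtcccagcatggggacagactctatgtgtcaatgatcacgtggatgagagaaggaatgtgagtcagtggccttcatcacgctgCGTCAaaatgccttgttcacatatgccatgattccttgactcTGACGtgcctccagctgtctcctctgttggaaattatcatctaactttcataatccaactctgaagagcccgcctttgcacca
ADCY3, chr2:24632991-24633290, within the lncRNA ENSG00000286829: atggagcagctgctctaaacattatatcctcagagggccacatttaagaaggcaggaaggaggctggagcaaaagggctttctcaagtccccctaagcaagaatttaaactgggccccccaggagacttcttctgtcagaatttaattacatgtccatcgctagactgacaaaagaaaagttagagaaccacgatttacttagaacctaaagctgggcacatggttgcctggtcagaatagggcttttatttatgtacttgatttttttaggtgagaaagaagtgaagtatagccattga
The 250 bases before a RefSeq start are shown for ADCY4, whose recurrent contacts lay upstream, and for ADCY2 and ADCY5, whose recurrent contacts lay in the gene itself. They are given on the gene's strand, which is plus for ADCY2 and minus for ADCY4 and ADCY5.
ADCY2 promoter, chr5:7396001-7396250: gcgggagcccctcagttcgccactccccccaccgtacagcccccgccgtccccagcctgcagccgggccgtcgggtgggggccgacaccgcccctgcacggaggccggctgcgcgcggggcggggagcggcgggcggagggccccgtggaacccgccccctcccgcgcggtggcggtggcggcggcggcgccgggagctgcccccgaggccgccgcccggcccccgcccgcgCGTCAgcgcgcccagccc
ADCY4 promoter, chr14:24804278-24804527: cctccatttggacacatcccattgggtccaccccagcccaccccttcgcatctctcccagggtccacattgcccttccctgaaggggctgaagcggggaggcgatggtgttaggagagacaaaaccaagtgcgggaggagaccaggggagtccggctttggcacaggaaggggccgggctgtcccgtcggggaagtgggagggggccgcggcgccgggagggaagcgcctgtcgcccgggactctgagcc
ADCY5 promoter, chr3:123167938-123168187: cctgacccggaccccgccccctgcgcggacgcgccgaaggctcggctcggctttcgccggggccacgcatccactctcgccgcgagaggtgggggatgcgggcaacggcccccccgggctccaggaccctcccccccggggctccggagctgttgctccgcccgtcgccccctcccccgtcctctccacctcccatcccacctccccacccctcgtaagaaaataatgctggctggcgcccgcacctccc

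RefSeq promoters on GRCh37 were held for 6 of the 9 genes, and ADCY6, ADCY8 and ADCY9 had none in the table used. The GC content was 85.2% for the ADCY2 promoter, 67.2% for ADCY4 and 74.8% for ADCY5. The contacted windows had 52% for ADCY5, 49.7% for ADCY2, 42.3% for ADCY3 and 40.3% for ADCY9, beside a median of 41% over the central windows of 109779 interacting fragments. A set of 5 motifs was searched on both strands, namely the cyclic AMP response element (TGACGTCA), its arm (TGACG, which the full element contains), the CTCF core, a GATA site (AGATAA) and the MEF2 site. Among the printed windows, the arm occurred in the ADCY2 promoter and in the ADCY2 contacted fragment, and the other motifs in none. Of the promoter windows searched but not printed, those of ADCY1 and that of ADCY3 at chr2:25142455-25142704 also held the arm. The central window of the highest-scoring ADCY4 partner held none of the 5 motifs. The arm was present in 21.2% of 35116 RefSeq promoters and in 7.59% of the central windows. The full element was present in 1.65% and 0.122%, the CTCF core in 4.01% and 0.894%, the GATA site in 9.17% and 21%, and the MEF2 site in 0.134% and 0.28%. A match is a run of letters, and binding was not measured.

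Of the 44 interactions, 19 were called in all 3 replicates (43.2%, 95% Wilson interval 29.7 to 57.8, counting error only), 5 in 2 replicates and 20 in 1. Over the series 24.0% of interactions were called in all 3. ADCY4 alone gave 12 of the 19. Without ADCY4, 7 of 29 interactions (24.1%, interval 12.2 to 42.1) were called in all 3, close to the share over the series. The replicates held 28, 26 and 33 of the interactions, a mean of 29 ± 3.61 (SD, n = 3). Of the 8 promoter fragments, 6 had an interaction called in all 3 replicates, beside 51.7% of the 19340 promoter fragments with a call. The 2 without were ADCY1 and ADCY6. With the fragment next to ADCY8 there were 72 interactions, 36 of them (50%) in all 3.

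**Figure D1:**
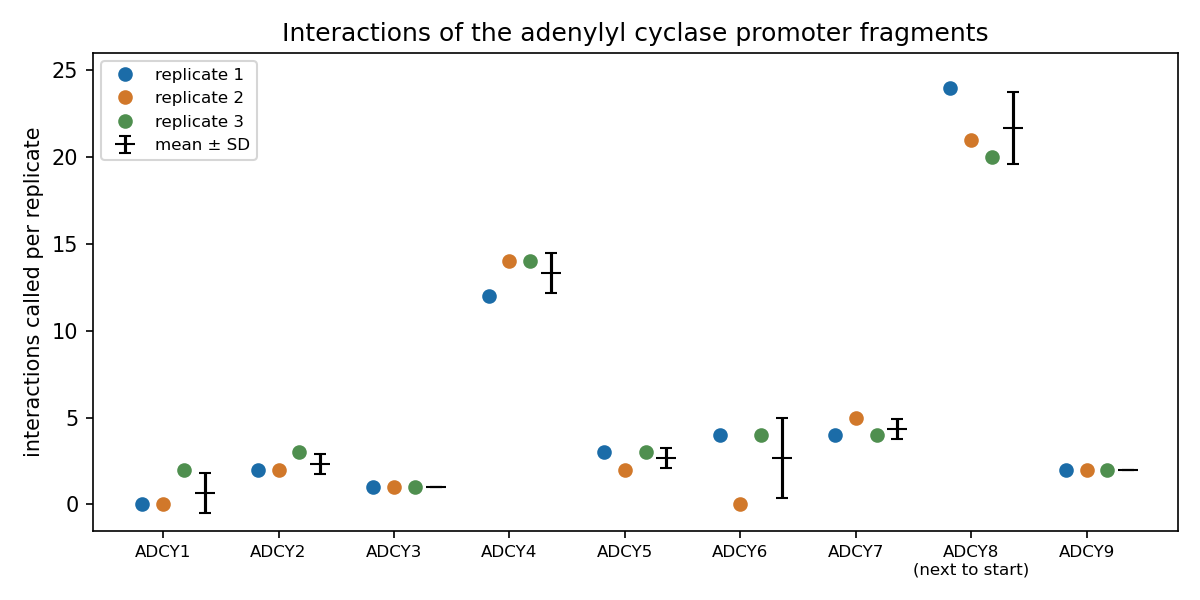
Number of interactions called per replicate (vertical axis) for each adenylyl cyclase promoter fragment. Coloured points are the 3 replicates and the black bar is the mean ± SD. ADCY4 had 12 to 14 interactions and the fragment next to ADCY8 had 20 to 24, while no other member exceeded 5.

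The 8 members and the fragment next to ADCY8 had from 0 to 24 contacts in a replicate. The fragment next to ADCY8 came first, with 24, 21 and 20 interactions in replicates 1, 2 and 3 (mean 21.7 ± 2.08). ADCY4 had 12, 14 and 14 (13.3 ± 1.15). ADCY7 followed with 4, 5 and 4. ADCY5 had 3, 2 and 3, ADCY6 had 4, 0 and 4, and ADCY2 had 2, 2 and 3. ADCY9 had 2 in every replicate and ADCY3 had 1 in every replicate. ADCY1 had 0, 0 and 2. In this order the replicates of 4 neighbouring pairs did not overlap. They were the fragment next to ADCY8 with ADCY4, ADCY4 with ADCY7, ADCY7 with ADCY5, and ADCY9 with ADCY3. In these 4 pairs the first named had more in all 3 replicates, and the other 4 pairs overlapped. The order is a description. It was set by the same counts, and 3 against 3 replicates cannot go below p = 0.1 in a two-sided exact permutation test, so none of the 8 pairs could pass one. The labels do not say whether the replicates were separate differentiations. In the union, promoter fragments of the series with a call had a median of 6 interactions and a mean of 11.4. The 8 members had a median of 4 and a mean of 5.5. Among the fragments with a call, ADCY4, with 15, had more than 76.5%, and ADCY3, with 1, had more than none. Captured fragments without a call are not listed and were not counted.

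**Figure D2:**
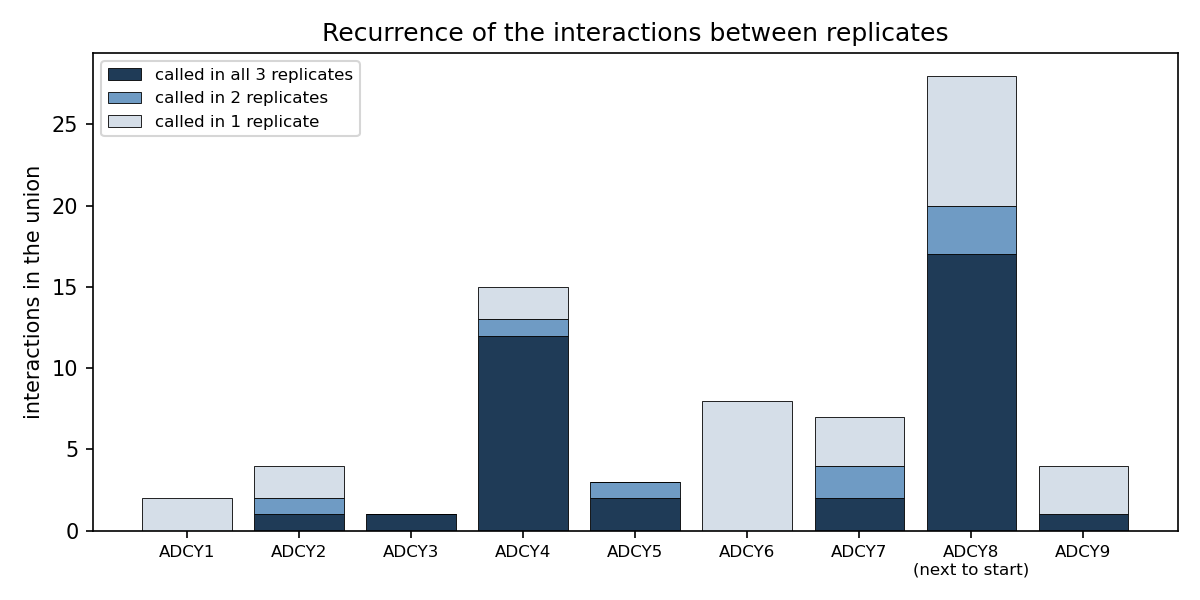
Interactions in the union of the replicates (vertical axis) for each promoter fragment, divided by the number of replicates that called them. The dark part, called in all 3, makes up 12 of 15 for ADCY4 and 17 of 28 for the fragment next to ADCY8, and is missing for ADCY1 and ADCY6.

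Members also differed in the direction and reach of their contacts. All 12 recurrent interactions of ADCY4 lay upstream of the gene, and all 7 of the other members lay downstream of their starts, at ADCY2, ADCY3, ADCY5, ADCY7 and ADCY9. The median distance between fragment midpoints was 201 kb for the 41 interactions within a chromosome and 94.0 kb for those called in all 3 replicates. The same medians over the series were 716 and 395 kb. Without ADCY4 the members' medians were 390 and 141 kb. None of the 9 contacts over 1 Mb was called in all 3 replicates. There were 3 interactions with another chromosome (6.82%, interval 2.35 to 18.2), each called in 1 replicate, beside 3.87% of the series.

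**Figure D3:**
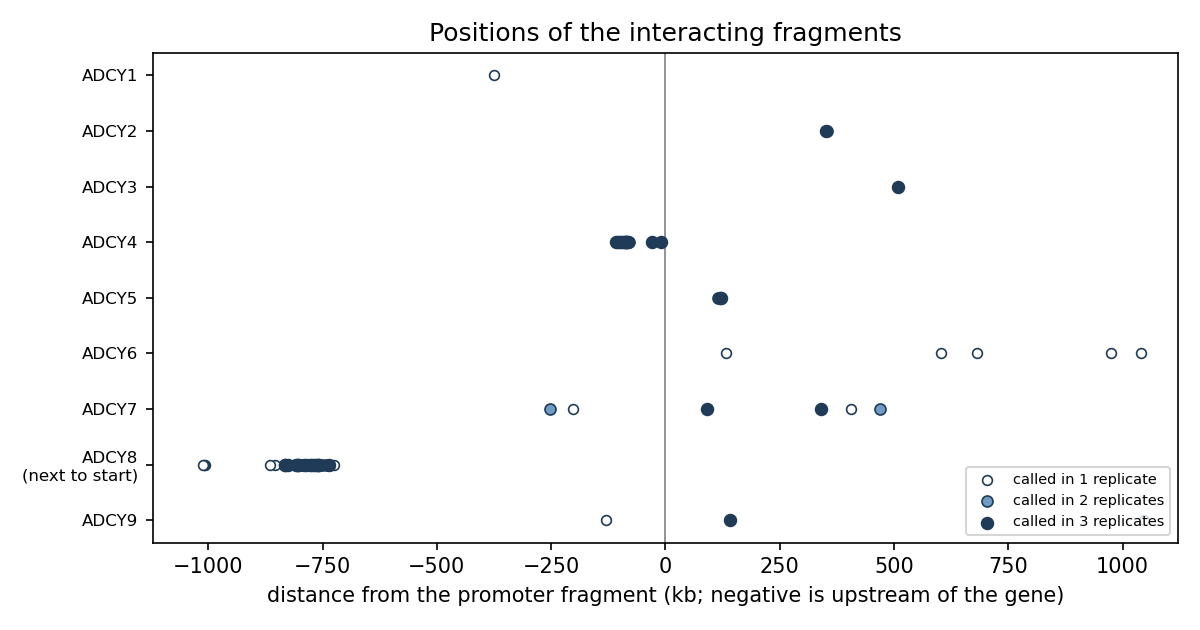
Position of each interacting fragment within about 1 Mb of its promoter fragment, in kb along the horizontal axis, with upstream of the gene to the left. Dark points were called in all 3 replicates, mid-blue in 2 and open in 1. ADCY4 and the fragment next to ADCY8 have their dark points upstream, and ADCY2, ADCY3, ADCY5, ADCY7 and ADCY9 have theirs downstream.

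The kind of partner was counted across the family. Interactions with a fragment overlapping the member's own gene numbered 6 (13.6%, interval 6.40 to 26.7), at ADCY2, ADCY5 and ADCY9. The share was 31.2% in the merged calls and 0 at scores of at least 10, and 8.33% with the fragment next to ADCY8. Over the series 4.29% of interactions landed in a gene starting on either of their fragments. Counted in that wider way the members had 7 (15.9%), since RIPK3, a partner of ADCY4, reaches onto the ADCY4 promoter fragment. Interactions with another promoter fragment numbered 18 (40.9%, interval 27.7 to 55.6). Over the series the share was 9.82%, with each pair counted once. A pair of 2 promoter fragments belongs to both promoters, so a series share counted per promoter, as for the members, would be higher. That share was not computed. ADCY4 gave 5 of the 18, ADCY7 gave 6 and the others the rest. The members' share was 33.3% when only interactions listed with the member's fragment first were counted, and 44.8% without ADCY4. It was 25% with the fragment next to ADCY8, none of whose partners is a promoter fragment, and 28.1% in the merged calls. The shares were not tested against the series, since interactions of 1 promoter are not independent.

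The listed contacts of ADCY5 (chr3:123001143-123167937, minus strand) all lay in its own gene. Its promoter fragment, chr3:123162907-123172340, had 3 interactions, and all 3 partners were neighbouring fragments, a run of 10.1 kb lying 115 to 121 kb downstream of the promoter. The middle one, chr3:123048233-123049152, is intronic and is the source of the ADCY5 window printed above. It scored 7.55, 6.56 and 7.39 in replicates 1, 2 and 3 (7.17 ± 0.531, SD, n = 3). The fragment on its gene-end side, chr3:123045788-123048232, holds coding exon and scored 6.98, 6.21 and 5.89 (6.36 ± 0.560). The third, chr3:123049153-123055916, scored 5.13 in replicate 1 and 5.54 in replicate 3, and was not listed in replicate 2. Scores therefore stayed within a narrow band just above the lower limit, and they were higher in the authors' merged calls, at 12.12, 10.3 and 7.43 in the order just given. None of these 3 fragments was called with any other promoter. ADCY5 was the 1 member that shared no partner with another promoter fragment.

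ADCY6 (chr12:49159977-49182872, minus strand) had no recurrent contact. Its promoter fragment, chr12:49174578-49186511, also holds the start of the divergent transcript ADCY6-DT, so contacts of both genes cannot be told apart. It had 8 interactions, none called in more than 1 replicate, 4 in replicate 1, 0 in replicate 2 and 4 in replicate 3, and none was in the merged calls. In replicate 3 the partners included the fragment with the starts of RAPGEF3, which encodes the cyclic AMP sensor EPAC1, at 7.12 and 1040 kb. That replicate also listed the fragment over HDAC7, a class IIa histone deacetylase, at 7.3 and 975 kb. In replicate 1 they included the fragment over PFKM, the muscle phosphofructokinase, and SENP1, a SUMO protease, at 7.1 and 682 kb. The partner over CCDC184 scored 5.39 and that over KANSL2 5.18, both in replicate 1. The farthest partner on the chromosome lay in CLIP1, 73627 kb away, at 9.55 in replicate 3. Its 2 partners on other chromosomes were an intronic fragment of TRPC6, a cation channel gene, at 6.11 in replicate 1, and a fragment on chromosome 15 at 6.46 in replicate 3. The fragment with the start of ZNF641 shared 4 of the 8 partners (50%), which was 30.8% of its own 13.

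Among the calmodulin-responsive members, ADCY1 (chr7:45613739-45762715, plus strand) has its promoter on chr7:45604128-45619671, which had no call in replicates 1 and 2. Replicate 3 listed 2, at 5.24 for a fragment 375 kb upstream and 6.63 for a fragment 1610 kb downstream. Neither was in the merged calls. ADCY3 (chr2:25042038-25143106, minus strand) had a single partner of its promoter fragment chr2:25138835-25146662, and it was called every time. The fragment chr2:24632102-24634178 lies 510 kb downstream of the ADCY3 promoter, past the end of the gene, and overlaps an exon of the lncRNA ENSG00000286829. It scored 7.15, 7.84 and 8.18 (7.72 ± 0.525) and 11.72 in the merged calls. Another 4 promoter fragments called the same partner, among them those of CENPO, DNAJC27 and PTRHD1, which lie near ADCY3. The end of ADCY3 was in turn contacted from the promoter of NCOA1, a nuclear receptor coactivator. That promoter called chr2:25041290-25042052, which overlaps only the last bases of ADCY3, at 9.26, 9.7 and 5.94 (8.30 ± 2.06) over 328 kb. It called the adjoining fragment inside the gene, chr2:25042053-25044145, at 6.52 and 6.38 in replicates 1 and 2. That pair was not listed in replicate 3.

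ADCY8 is the adenylyl cyclase best known from brain. The fragment next to its start, chr8:132053643-132056079, had 28 partners, all upstream, between 724 and 1012 kb away. Of these, 17 were called in all 3 replicates. The highest, chr8:132815091-132816235, scored 35.97, 33.69 and 34.39 (34.7 ± 1.17) and 50.14 in the merged calls, higher in each replicate than any other contact of the family called in all 3. Its neighbours on both sides scored 28.96, 23.57 and 22.84, and 23.57, 26.14 and 16.77. These belong to a run of 9 adjoining fragments over 37.2 kb, 7 of them in all 3 replicates, 743 to 776 kb from the promoter fragment. A further run of 7 fragments lay at 786 to 807 kb, with 6 in all 3, and a run of 4 at 826 to 832 kb, with 3 in all 3. Annotated genes overlapped 4 of the 28 partners, in EFR3A and OC90, and each of these 4 was called in 1 replicate. Scores were highest at 761 kb in every replicate, with smaller rises nearer and farther away. The promoter fragment of the lncRNA ENSG00000253992, which lies inside ADCY8, shared 12 of the 28 partners (42.9%), which was 92.3% of its own 13. Of its calls to them, 11 were made in 1 replicate, 1 in 2 and none in all 3, at scores from 5.12 to 7.63. No ADCY8 start in the annotation used here lies on the fragment. The paper chose its captured promoters by an older Ensembl annotation. It also names ADCY8 among the genes of its promoter interactions with the highest read counts. Whether the contacts listed here belong to ADCY8 was not tested.

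**Figure D4:**
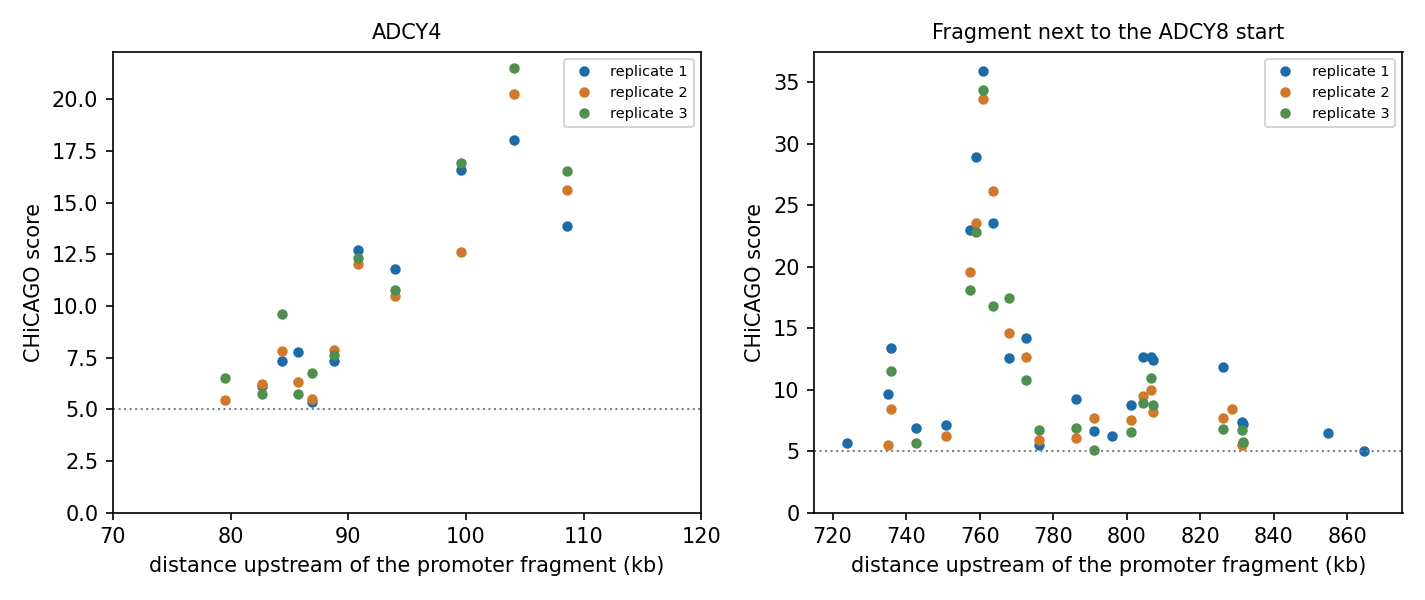
CHiCAGO scores in replicates 1, 2 and 3 (vertical axis) of partners against their distance upstream in kb (horizontal axis), for ADCY4 on the left and the fragment next to the ADCY8 start on the right. The dotted line is the lowest listed score, 5. Scores of ADCY4 are highest at 104 kb and those beside ADCY8 at 761 kb, in all 3 replicates.

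In the group that beta-gamma subunits can stimulate, ADCY4 (chr14:24787555-24804299, minus strand) had the most recurrent contacts of the 8 genes. Its promoter fragment, chr14:24800814-24805365, contacted a block of 11 adjoining fragments, chr14:24880454-24914894, of which 10 were called in all 3 replicates. The block spans 34.4 kb, 79.5 to 109 kb upstream, and covers the end of NYNRIN, then CBLN3, KHNYN and SDR39U1. The highest score was that of chr14:24905841-24908555, over coding and UTR exons of KHNYN, which encodes an antiviral endonuclease cofactor, at 18.03, 20.25 and 21.5 (19.9 ± 1.76). The fragment before it, chr14:24899592-24905840, scored 16.56, 12.59 and 16.92 (15.4 ± 2.40). The fragment after it, chr14:24908556-24914894, with the start of SDR39U1, scored 13.85, 15.62 and 16.55 (15.3 ± 1.37). At the other end of the block, chr14:24880454-24884710 scored 5.43 and 6.52 in replicates 2 and 3 and was not listed in replicate 1. Scores were thus highest at the KHNYN and SDR39U1 end in each replicate.

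Closer to ADCY4 there were 2 recurrent partners. The fragment over NFATC4, a transcription factor controlled by calcineurin, at 29.5 kb, scored 13.45, 11.82 and 7.63 (11.0 ± 3.00), the widest spread among the 12. That over RIPK3, a kinase of necroptosis, at 10.5 kb, scored 8.66, 6.74 and 6.78 (7.39 ± 1.10). The 2 contacts beyond 1 Mb were each called once, at 5.78 in replicate 3 and, in CCDC88C, 5.63 in replicate 2. Much of this was common to the neighbourhood. The promoter fragment 24805899 to 24807043 of chromosome 14, which holds starts of RIPK3, shared 12 partners with ADCY4, 80% of the 15 of ADCY4 and 63.2% of its own 19. The rest of ADCY4 was contacted as well. From the side of the block, the fragment chr14:24791728-24800813 inside ADCY4 was called by the promoter fragment chr14:24899592-24905840 at 15.13, 15.35 and 15.28 (15.3 ± 0.112), and by that of SDR39U1 at 10.01, 12.28 and 12.96. In all, fragments of the ADCY4 gene outside its promoter fragment had 10 interactions with other promoters, 7 of them in all 3 replicates.

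ADCY7 (chr16:50280048-50352046, plus strand) mostly met other promoters. Of the 7 partners of its promoter fragment, chr16:50300258-50315102, 6 were promoter fragments. That ADCY7 fragment lies inside the gene and holds 8 of its 16 annotated starts. The fragment of BRD7, a bromodomain subunit of the PBAF remodelling complex, scored 6.85, 7.95 and 7.26 (7.35 ± 0.556) at 92.0 kb. A fragment at 340 kb in an intron of NKD1, a Wnt inhibitor, overlapping the lncRNA ENSG00000205414, scored 5.96, 5.78 and 5.22 (5.65 ± 0.386). These were the 2 contacts called in all 3 replicates. CNEP1R1, which encodes a subunit of a nuclear envelope phosphatase, was a partner at 6.12 and 6.84 in replicates 2 and 3, and CYLD, a deubiquitinase gene, at 6.13 and 5.53 in replicates 1 and 2. The fragments of HEATR3, SNX20 and RBL2 were called once each, at 5.88, 6.04 and 7.79. All scores of ADCY7 stayed under 8. The NOD2 promoter fragment shared 2 of the 7 partners, which was 66.7% of its own 3.

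ADCY2 (chr5:7396251-7830194, plus strand), the longest of the 9 genes at 433.9 kb, contacted its own intron from the promoter fragment chr5:7394055-7399507. The fragment chr5:7745379-7749977, 351 kb downstream of the promoter, scored 6.5, 6.24 and 7.09 (6.61 ± 0.436). The next fragment scored 5.57 and 6.77 in replicates 1 and 2 and was not listed in replicate 3. In the merged calls these scored 11.91 and 9.41, and 3 fragments adjoining them in the gene, not listed in any replicate, scored 5.38, 8.4 and 8.43. Outside the gene, a fragment 627 kb upstream, at 5.5, and one in CFAP90, at 5.25, were also listed only in the merged calls. A fragment in DNAH5, at 5.11 in replicate 3, was not in the merged calls. With the chromosome 15 pair described below, ADCY2 had 8 interactions in the merged calls against 4 in the union. The fragment chr5:7745379-7749977 is itself the promoter fragment of the lncRNA ENSG00000250761, and it holds the ADCY2 window printed above with its 2 response element arms. From this intronic fragment the strongest contact reached back past the ADCY2 start to chr5:7260022-7261300, 487 kb away, at 20.68, 18.3 and 17.98 (19.0 ± 1.48). It scored higher in each replicate than the contact of the ADCY2 promoter. Fragments of the ADCY2 gene outside its promoter fragment had 29 interactions with other fragments, 11 in all 3 replicates. All 11, and most of the 29, were those of chr5:7745379-7749977, the lncRNA promoter fragment.

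The highest score in the family's calls within 1 replicate also belonged to ADCY2, and it did not recur for that pair. In replicate 3 the ADCY2 promoter fragment was called at 53.92 with chr15:29091971-29096127, a fragment over GOLGA6L7, 1 of a family of closely similar golgin genes. The merged calls gave 14.51. Replicates 1 and 2 did not list this pair. They listed the same fragment of chromosome 15 with other fragments near ADCY2, the intronic chr5:7745379-7749977 at 10.4 in replicate 1 and chr5:7851574-7852953, over MTRR and 455.5 kb from the ADCY2 promoter fragment, at 13.29 in replicate 2. Within 500 kb of ADCY2, calls with chromosome 15 numbered 1, 2 and 4 in replicates 1, 2 and 3, of 5, 7 and 10 between chromosomes 5 and 15 in all. Their partners lay between 29083995 and 29214080 on chromosome 15. Near-identical copies of that region and the arrangement of the chromosomes in this line were not examined.

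ADCY9 (chr16:4003388-4166443, minus strand) had 1 recurrent contact of its promoter fragment chr16:4163681-4169290, and it too lay inside the gene. The fragment chr16:4024663-4025828, 141 kb downstream of the promoter and near the end of the gene, overlaps coding exon and scored 7.89, 5.83 and 7.13 (6.95 ± 1.04), with 10.94 in the merged calls. Unlike the ADCY5 fragments it was shared. The promoter fragment of VASN called it at 6.18, 8 and 5.59 over 397 kb, and that of CORO7 and PAM16 at 5.57 and 7.81 in replicates 2 and 3. The other 3 contacts of ADCY9 were called once each, at 6.19 over SRL, the sarcalumenin gene of the sarcoplasmic reticulum, at 5.01 over IL32 and at 8.26 for a fragment 10886 kb away.

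**Figure D5:**
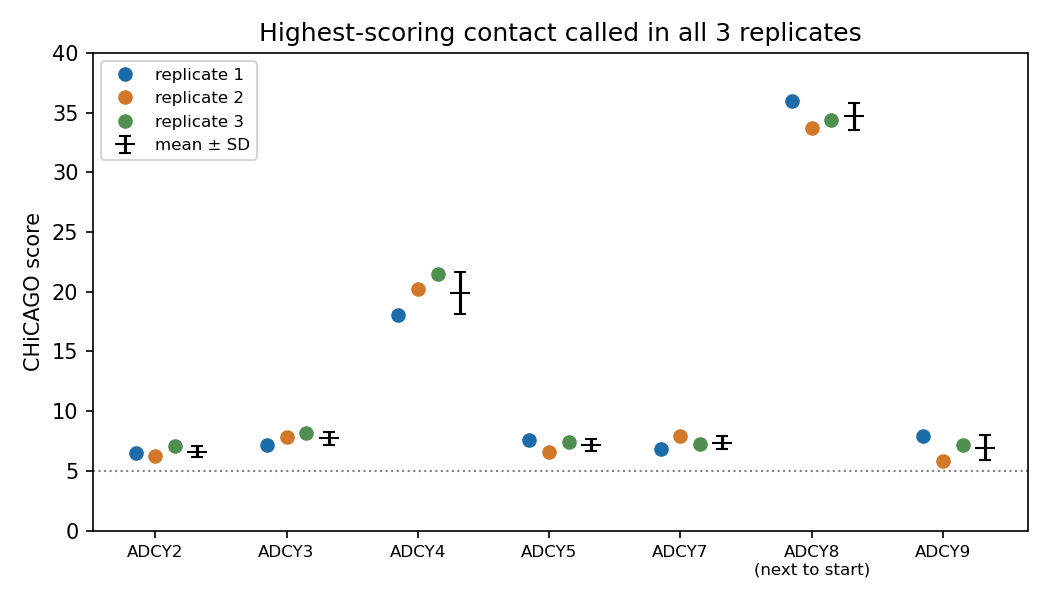
CHiCAGO score (vertical axis) in each replicate of the highest-scoring contact called in all 3, for the 7 promoter fragments that had 1. Coloured points are replicates, the black bar is the mean ± SD and the dotted line is the lowest listed score, 5. ADCY4 lies at 18.03 to 21.5 and the fragment next to ADCY8 at 33.69 to 35.97, while the other 5 stay between 5.83 and 8.18.

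Other genes of the cyclic AMP pathway were counted in the same way. Of 34 genes for receptors, G proteins, protein kinase A and its anchors, other cyclic AMP sensors and targets, 27 had an interaction in at least 1 replicate and 18 in all 3, with a median of 8. Of the 9 cyclases, 8 and 6 did so by the rule, with a median of 4. Among 20149 protein-coding genes these were 78.1% and 43.5%, with a median of 5. AKAP12, an anchor of protein kinase A, had the most of the list, 85 interactions with 43 in all 3 replicates. POPDC3, of the cyclic AMP-binding popeye domain family, had 53 with 25, and GNAS, the stimulatory alpha subunit, had 50 with 27. At the receptor end, ADRB1 had 10 with 2 in all 3 replicates. PRKACA, the main catalytic subunit of protein kinase A, had 14 with 3. ADCY10, the soluble cyclase, had 4, none of them in all 3 replicates. No listed promoter fragment held a start of ADRB3, PRKAR2A, RAPGEF4, the popeye gene BVES or the anchors AKAP6, AKAP9 and AKAP13. These were counted as genes with no call. A promoter fragment is listed only where it has a call, so whether their promoters were captured is not shown. Genes with several promoter fragments, such as GNAS with 3 and AKAP12 with 2, have more chances of a call.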

How the data were processed

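The authors fixed hESC-CMs, captured HindIII promoter fragments, aligned the reads to GRCh37 using HiCUP and scored them using CHiCAGO with its defaults. Tool versions are not given in the sources used here. The deposited values are CHiCAGO scores of fragment pairs, per replicate and for all 3 merged, with no score under 5. Read counts and depth were not analysed here, so no interval that needs them is given. All 91 member and partner fragments ended at HindIII sites of GRCh37.

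Gene models were those of GENCODE v44 in its GRCh37 version. A pair listed in both orders was counted once at its higher score, the 3 replicates were pooled as a union, and distances join fragment midpoints. Shares have 95% Wilson intervals. Neighbouring members in the order of counts were compared by exact permutation of replicates with Benjamini-Hochberg adjustment over 8 pairs. The fragment next to ADCY8 stood for ADCY8 in this order. The members, the pathway list and the tests were chosen with earlier results of these data known. Every member is named, with its contacts in all 3 replicates and its highest contact. Alternatives were score limits of 7 and 10, each replicate left out, merged calls, matching within 5 kb, same chromosome only, at most 1 Mb, protein-coding starts only and promoter in column 1 only. Pairing by replicate, leaving out ADCY4 and adding the fragment next to ADCY8 were chosen after seeing the data. Counting was tested on simulated data. Python 3.11.15, pandas 2.3.3, numpy 2.4.6, scipy 1.17.1, pysam 0.24.0 and matplotlib 3.10.9 were used.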

Additional observations from a re-analysis of the deposited data

How the results depend on the processing

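The number of interactions, 44, became 22 at scores of at least 7, 7 at scores of at least 10, 29 without ADCY4 and 72 with the fragment next to ADCY8, and stayed between 32 and 44 under the other alternatives, including 33 to 41 with a replicate left out. The share called in all replicates, 43.2%, became 71.4% at scores of at least 10, 59.4% within 1 Mb and 24.1% without ADCY4, and lay between 48.8% and 63.6% with a replicate left out, when only 2 replicates need share a call. The merged calls give no such share. The median distance, 201 kb, became 108.6 kb at scores of at least 7, 96.8 kb at scores of at least 10, 118.9 kb in the merged calls, 119.8 kb within 1 Mb, 296.4 kb with the promoter in column 1 only, 390.2 kb without ADCY4 and 742.7 kb with the fragment next to ADCY8. It was 119.8 to 171.3 kb with a replicate left out. Protein-coding starts alone changed none of these 3 values. The share with another promoter fragment, 40.9%, became 57.1% at scores of at least 10. In the order of members, with the fragment next to ADCY8 for ADCY8, 0 of 8 neighbouring pairs passed an adjusted p of 0.05 by exact permutation. With a replicate block, that is, with the counts paired by replicate, 0 passed as well. Both outcomes were fixed by the number of replicates. The exact p cannot go below 0.1 for 3 against 3 replicates, or below 0.25 for 3 pairs. Contacts under a score of 5 are not listed, and depth per replicate was not analysed here, so calls in 1 replicate may be contacts that fell below the limit in the others.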
